A study of Mus musculus with 14 samples.

Results

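The 34 genes described here act in G2 and mitosis. They were taken from a fixed list of symbols. Each symbol was matched to the transcript identifiers of the deposited tables through the GENCODE M21 annotation, and the transcript with the highest mean RPKM stood for its gene. RPKM is the read number per kilobase, scaled to the library's assigned reads. All 34 were found among the 14248 genes of the series. They comprised 6 cyclin, CDK1 and anaphase-promoting complex genes, 5 genes of mitotic kinases and the chromosomal passenger complex, 8 kinetochore and checkpoint genes, 10 genes of spindle motors and microtubule proteins, 2 genes of chromosome structure and 3 cytokinesis genes.

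Both assays were made on C57BL/6J mouse embryonic fibroblasts, connective tissue cells grown in serum: Ribo-seq, which reads the 25 to 35 nt of mRNA that a ribosome shields, and RNA-seq of 40 to 60 nt pieces. Scram (control hairpin), shMETTL3 and shABCF1 had 2 replicates in each of the 2 assays, and Torin (250 nM Torin1 for 2 h) had 1 library per assay, which gave 14 libraries. METTL3 is the methyltransferase subunit that places a methyl mark on adenosines inside mRNA, ABCF1 is an ABC-family ATPase found with ribosomes and eIF2, and Torin1 inhibits the kinase mTOR. The series title asks how mRNAs are translated without eIF4F, the complex that recruits ribosomes to capped mRNA. All cells were lysed in the presence of cycloheximide at 100 µg/ml. The labels do not say which libraries received DMSO, whether the Torin cells carried a hairpin, how many clones or hairpin sequences were used, or whether replicates were separate cultures. The p values therefore measure only the spread between these libraries.

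Entry into mitosis is driven by CDK1 bound to cyclin B, and exit begins when the anaphase-promoting complex, with its activator CDC20 and the ubiquitin-conjugating enzyme UBE2C, marks cyclin B for destruction. PLK1 and the Aurora kinases build the spindle and correct faulty attachments, and the spindle checkpoint holds exit back until every kinetochore is attached to microtubules. The genes are transcribed late in the cell cycle: the MuvB complex binds the CHR element of their promoters, as the DREAM repressor in resting cells and with B-MYB and FOXM1 in dividing ones, and NF-Y binds CCAAT boxes nearby. In a bulk sample, fewer cells in G2 and mitosis and less RNA per such cell cannot be told apart.

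RefSeq promoter windows (build GRCm38.p6) were matched by symbol for 29 of the 34 genes. Over the 250 bases before the start, the CHR letters TTTGAA and the NF-Y box CCAAT were searched on both strands. The CHR letters occurred in 10 of the 29 genes (34.5%), against 18.3% of 27025 genes with a window. That reference was not limited to the 14248 genes of the series, so it includes genes not listed here. A CCAAT box occurred in 22 genes (75.9%, against 37.5%), at least 2 boxes in 15 (51.7%, against 11.5%), and both elements in 1 window in 9 (31%, against 6.45%). The windows of the 4 genes followed through every comparison, Ccnb1, Cdk1, Top2a and Mki67, and of Ect2 are shown 5′ to 3′ in the gene's direction to place these elements, with CHR and CCAAT letters in capitals. Each is the stretch nearest the start that no annotated exon covers.
Ccnb1 chr13:100786571-100786720 (minus strand): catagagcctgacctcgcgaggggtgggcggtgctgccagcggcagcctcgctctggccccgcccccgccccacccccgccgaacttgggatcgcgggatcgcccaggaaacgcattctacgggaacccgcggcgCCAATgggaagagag
Cdk1 chr10:69352939-69353088 (minus strand): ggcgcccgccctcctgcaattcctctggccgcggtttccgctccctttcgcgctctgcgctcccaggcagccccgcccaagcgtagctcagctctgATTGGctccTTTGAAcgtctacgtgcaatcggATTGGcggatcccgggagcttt
Top2a chr11:99024190-99024339 (minus strand): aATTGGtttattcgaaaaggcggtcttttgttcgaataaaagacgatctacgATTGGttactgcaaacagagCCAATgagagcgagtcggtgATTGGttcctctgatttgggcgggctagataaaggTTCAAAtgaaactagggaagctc
Mki67 chr7:135716380-135716529 (minus strand): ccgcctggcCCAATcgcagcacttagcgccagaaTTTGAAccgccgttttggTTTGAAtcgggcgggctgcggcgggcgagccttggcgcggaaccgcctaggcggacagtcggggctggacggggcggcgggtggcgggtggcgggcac
Ect2 chr3:27153879-27154025 (minus strand): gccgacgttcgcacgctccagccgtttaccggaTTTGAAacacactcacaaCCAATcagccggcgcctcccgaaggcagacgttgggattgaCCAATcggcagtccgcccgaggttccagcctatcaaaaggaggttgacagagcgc
The Cdk1 stretch held 1 CHR match between 2 CCAAT boxes, Top2a 1 CHR match after 4 boxes, Mki67 2 CHR matches after 1 box, and Ect2 1 CHR match before 2 boxes. Ccnb1 had 1 CCAAT box in the stretch shown and 2 in its whole window, which held no CHR letters. A match describes letters only.

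Ribo-seq libraries had an implied depth of 1764404 to 5155224 assigned reads and RNA-seq libraries of 1197860 to 3802702, and the members' own reads ranged from 19 to 2940 per library. The hairpin targets were low where labelled. Mettl3 stood at 27.8% and 77.7% of same-replicate Scram in RNA-seq and at 12.7% and 38.5% in Ribo-seq, and Abcf1 at 32.6% and 47.4%, and at 31.3% and 50.2%. In the RNA-seq of replicate 2 the library labelled shMETTL3 thus kept most of its Mettl3 RNA. Of 10 fibroblast markers 9 were listed in every library, with a summed RPKM of 2032 to 3589 in RNA-seq, and Lum was listed nowhere. Epithelial markers summed to 36.0 to 86.4 there, endothelial, macrophage, skeletal muscle and neural markers to at most 8.28, and Cdh5, Adgre1, Myod1, Gfap and Sox2 were listed in none. The Ribo-seq sums were 4596 to 8645 for fibroblast, 98.3 to 283 for epithelial and at most 14.9 for the other lists. The part of other cell types in the results was not tested.

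The 34 genes were well expressed. Their median RNA-seq level lay between the 77.7th and 86.4th percentile of all tested genes in the 7 libraries, and their median Ribo-seq level between the 66.0th and 74.1st. Levels are given as scaled RPKM, with each library brought to the same median of the genes tested and a gene's listed transcripts summed. The sum was used because replicate 1 files and the files of replicate 2 and Torin list different leading transcripts for 8 genes: Cdk1, Ube2c, Aurka, Aurkb, Birc5, Nuf2, Tpx2 and Nusap1. With the single transcript 30 of the 34 could be tested, and Cdk1, Ube2c, Aurka and Birc5 could not. On the sum all 34 were tested. The sum does not put these 8 on 1 length: the leading Birc5 transcript has 3334 bases in the replicate 1 files and 947 in the others, and that of Cdk1 4375 and 1253. Their RNA-seq levels are therefore comparable only among libraries of replicate 1, or among those of replicate 2 and Torin. The SE of their fitted differences includes this gap. The same limit is kept for Ribo-seq, although the leading coding length is equal in both sets for Cdk1 (894 bases), Aurkb (1038), Nuf2 (1392) and Tpx2 (2238). Values without the 8 genes, a check chosen after seeing the data, cover 26 genes.

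Translational efficiency (TE) is log2 Ribo-seq minus log2 RNA-seq, with 1 added to each scaled RPKM. In control cells the members' median was below that of all genes. It was -0.91 in Scram replicate 1 and -0.25 in replicate 2, against 0.13 and 0.15 over all tested genes. TE followed coding length, as the plot of TE against coding length shows: Spearman's rho over the 34 genes was -0.93 and -0.89, and over all genes -0.77 and -0.74, given as descriptions in which all points share the same libraries. Without the 8 genes the medians were -1.25 and -0.78, and rho was -0.89 and -0.86 over 26. Both quantities are per length, Ribo-seq over the coding part and RNA-seq over the whole transcript.

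The lowest TE belonged to the largest proteins. Mki67, which coats mitotic chromosomes and has 9534 coding bases, had a TE of -4.69 and -3.44. Cenpf and Cenpe, kinetochore proteins with 8994 and 7416 coding bases, had -3.17 and -2.24, and -2.83 and -2.08. At the other end were short genes whose 2 replicates rest on different transcripts. Ube2c, with 516 coding bases in the replicate 1 files and 540 in the others, had 2.98 and 1.35, Cdk1 with 894 had 2.48 and 0.97, and Birc5, the passenger subunit survivin, with 366 and 423 had 2.63 and 0.41. Ccnb1 (1293 coding bases) had 0.74 and 0.75. The checkpoint genes Bub1 and Bub1b, with 3180 and 3159 coding bases, lay at -1.68 and -1.32, and at -1.89 and -1.22.

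**Figure D1:**
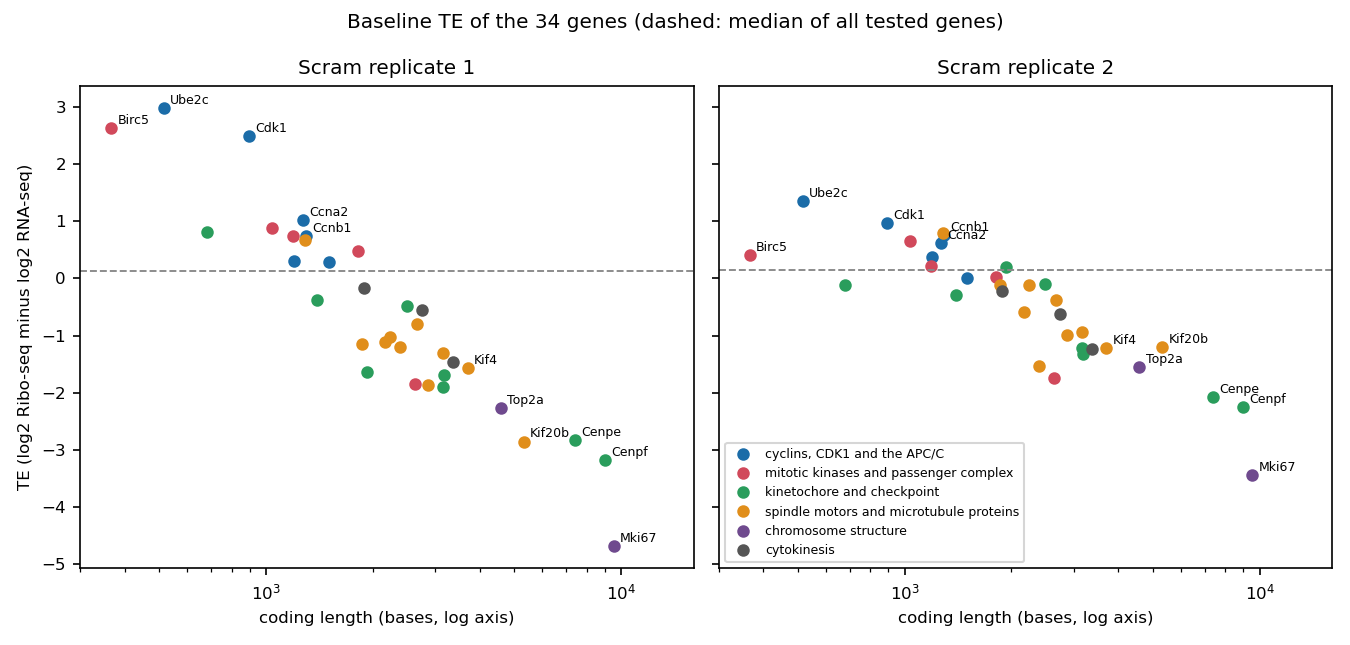
TE (vertical axis, log2) of the 34 genes against coding length (bases, log axis) in the 2 Scram replicates, coloured by role, with the median of all tested genes dashed. TE is lower the longer the coding region, from Ube2c at 2.98 and 1.35 to Mki67 at -4.69 and -3.44.

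Over the 26 genes counted on 1 transcript, the replicates of a group differed most, by their median, in Scram RNA-seq and shABCF1 Ribo-seq. In Scram RNA-seq the median of replicate 1 minus replicate 2 was 0.30 on the log2 scale, from -0.70 for Plk1 to 1.56 for Kif20b, and 20 of 26 were higher in replicate 1. In shABCF1 Ribo-seq it was -0.48, with 23 of 26 lower in replicate 1 and Ccnb1 at -2.05. The medians were smaller in Scram Ribo-seq (-0.074, 11 higher and 15 lower), shMETTL3 RNA-seq (-0.022, 11 and 15), shMETTL3 Ribo-seq (-0.14, 12 and 14) and shABCF1 RNA-seq (-0.10, 10 and 16). Single genes still lay apart there, such as Ccnb1 at -1.18 in shMETTL3 Ribo-seq. Since each knockdown library is set against Scram of the same number, a shift in Scram enters both knockdowns. The plot of levels per library shows 6 genes. Values in full are given for Ccnb1, Cdk1, Top2a and Mki67, and for genes that differed from Scram by at least 0.3 on the log2 scale in both replicates, or by 1 under Torin. Any other member named was chosen after its values were seen.

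Ccnb1 encodes cyclin B1 (chromosome 13, 100778650 to 100786570, GRCm38, minus strand). Its RNA-seq levels were 35.0 and 55.5 in Scram, 42.2 and 83.6 in shMETTL3, 25.3 and 48.1 in shABCF1, and 61.5 in Torin, with replicate 1 first. Its Ribo-seq levels were 148 and 233, 105 and 239, 70.1 and 293, and 405. Replicate 2 was the higher in each group and assay, and the Torin Ribo-seq library stood above the other 6.

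Cdk1, the catalytic partner of cyclin B1 (chromosome 10, 69335146 to 69352938, minus strand), had RNA-seq levels of 47.1 and 73.9 in Scram, 47.0 and 102 in shMETTL3, 23.1 and 55.2 in shABCF1, and 89.1 in Torin. In Ribo-seq it had 668 and 360.0, 507 and 347, 355 and 345, and 309. The RNA-seq levels of replicate 1 rest on a longer transcript than the others and are not set against them. In replicate 1 shABCF1 was the lowest library in both assays, and among the replicate 2 and Torin libraries shMETTL3 was the highest in RNA-seq and Torin the lowest in Ribo-seq.

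Top2a, the topoisomerase that untangles sister DNA before anaphase (chromosome 11, 98992943 to 99024189, minus strand), had the highest RNA-seq level of the 34 in each of the 7 libraries, at 125 and 114, 114 and 149, 104 and 110, and 120 in the same order. Its Ribo-seq levels were 64.4 and 94.7, 74.3 and 106, 50.1 and 92.6, and 118. In RNA-seq the 2 shABCF1 libraries lay below the other 5 on the sum and overlapped them on the single transcript, and the other groups overlapped. In Ribo-seq Torin was the highest library.

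Mki67, the source of the Ki-67 proliferation antigen (chromosome 7, 135689784 to 135716361, minus strand), had RNA-seq levels of 45.1 and 20.6, 31.6 and 27.3, 35.5 and 27.4, and 24.6. Its Ribo-seq levels were 2.88 and 3.27, 3.49 and 2.38, 2.38 and 2.48, and 3.15. Every group overlapped Scram in RNA-seq.

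**Figure D2:**
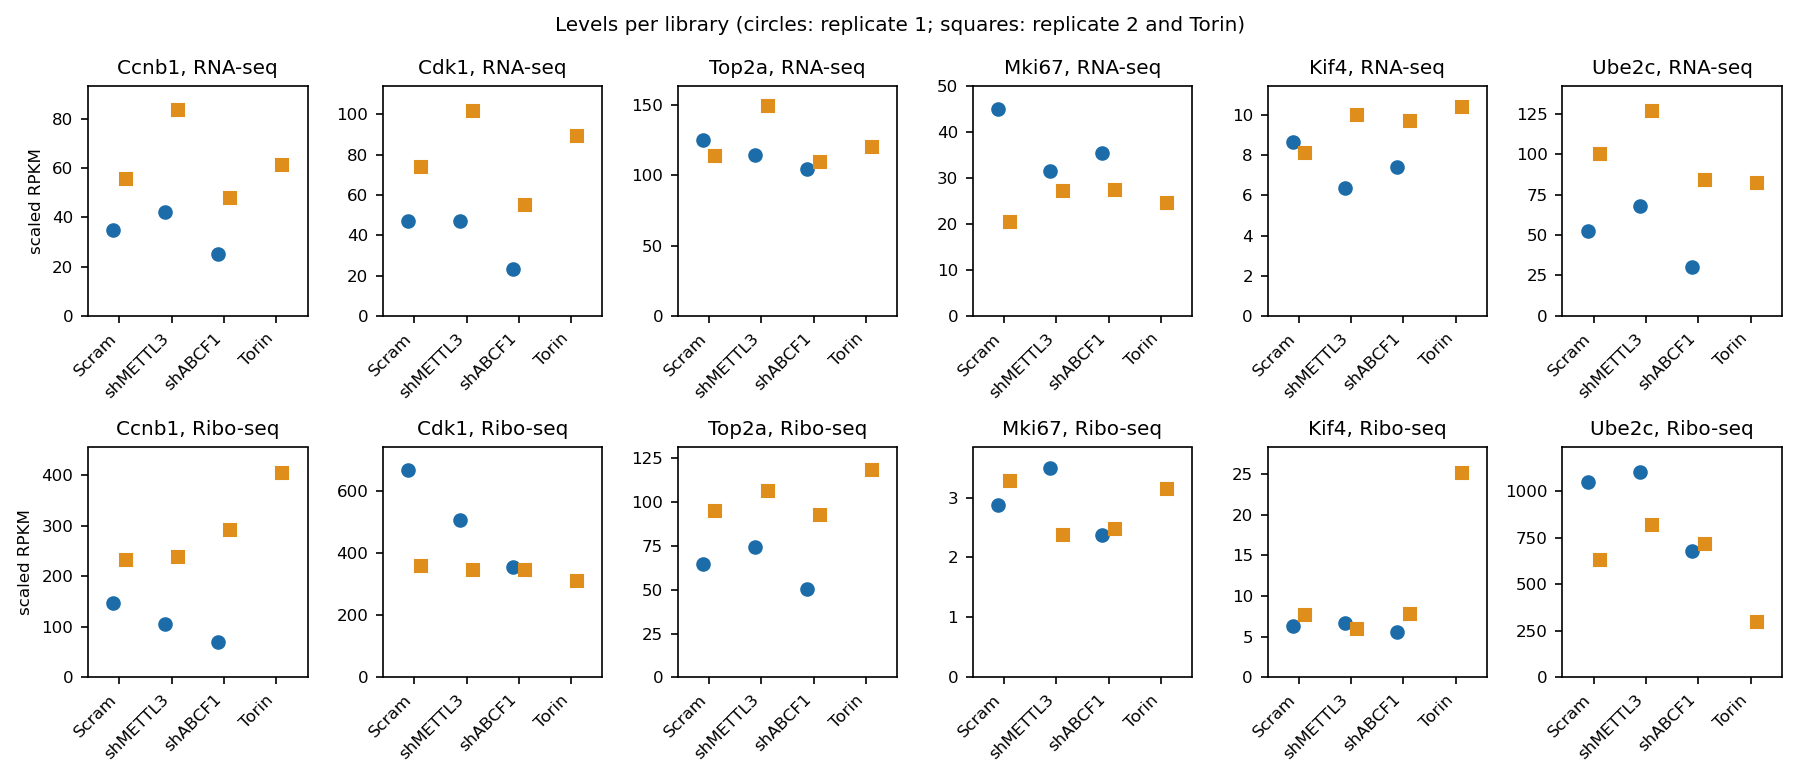
Scaled RPKM (vertical axis) of 6 genes in each library, RNA-seq above and Ribo-seq below, with circles for replicate 1 and squares for replicate 2 and Torin. The Kif4 Ribo-seq level is 25.2 in Torin and 5.52 to 7.83 in the other 6 libraries, and the Ube2c level is 296 in Torin and 631, 717 and 819.6 in the replicate 2 libraries. The Cdk1 and Ube2c circles rest on other transcripts than the squares.

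Among the other members, Racgap1, the centralspindlin subunit that guides ECT2 to the midzone, had 81.5 and 62.3 in Scram RNA-seq and 182 and 133 in Ribo-seq, and Anln had 50.5 and 50.9, and 44.99 and 52.9. Of the cell cycle regulators, Ccna2 had 71.5 and 46.3 in RNA-seq and 364 and 177 in Ribo-seq, and Ccnb2, the other B cyclin, 43.2 and 45.4, and 135 and 146. Cdc20 had 33.1 and 48.5, and 102 and 120.4. Ccnb2 was thus the steadiest of these between replicates, and Ccna2 was the higher in replicate 1 in both assays. Among the kinases, Aurka had Scram RNA-seq levels of 37.6 and 35.3, Aurkb, the catalytic passenger subunit, 24.8 and 28.0, and Plk1, which acts at centrosomes and kinetochores, 16.7 and 27.8. Their Ribo-seq levels were 158 and 103, 117 and 110.5, and 58.9 and 70.1.

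The kinetochore genes spanned a wide range. Their Scram RNA-seq levels ran from 8.41 and 6.36 for Ttk to 45.7 and 39.0 for Bub1b, and their lowest Ribo-seq levels were 4.85 and 4.47 for Cenpe. The highest were 65.3 for Spc25 in replicate 1 and 40.5 for Bub1b in replicate 2. Bub1, the kinase that places the passenger complex at centromeres, had 27.7 and 15.9 in RNA-seq and 20.5 and 14.9 in Ribo-seq. Among the spindle genes, Kif20a had the highest Scram RNA-seq level in replicate 1, at 63.0, and Tpx2, the activator of Aurora A at spindle microtubules, in replicate 2, at 38.3. Kif11, the motor that pushes spindle poles apart, had 38.6 and 24.1 in RNA-seq and 38.2 and 30.5 in Ribo-seq. Kif23, the centralspindlin motor, had 21.1 and 20.1, and 13.4 and 24.3, and Nusap1, a microtubule bundler, 12.97 and 11.7, and 52.7 and 51.4.

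METTL3 knockdown moved no gene of the set past the test. In each readout limma called 0 of 30 genes on the single transcript, and 0% of all tested genes, with a lowest adjusted p among the members of 0.99996, 0.99993 and 0.99997. This fit had no replicate block. An unadjusted p under 0.05 was found for 63 genes of the whole table in RNA-seq, 243 in Ribo-seq and 32 in TE. It was found for 0 members on either scale. The sum over transcripts also gave 0 of 34. The SE values given below for the knockdowns are from the fit without a replicate block, so they include shifts between replicate numbers. With the block the SE was 0.42 for Ccnb1 TE and 0.195 for Birc5 Ribo-seq in METTL3 knockdown. It was 0.22 for Ndc80 Ribo-seq in ABCF1 knockdown, and no member was called with the block either. The lowest member adjusted p for METTL3 knockdown with the block was 0.9994 in RNA-seq, 0.369 in Ribo-seq and 0.99969 in TE. Unadjusted limma p values under 0.05 with the block included Ect2 in RNA-seq (0.038) and Bub1b in Ribo-seq (0.046), on the single transcript.

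Most of the 34 genes lay on opposite sides of Scram in the 2 replicates. In RNA-seq 26 of 34 were lower than Scram in replicate 1 and higher in replicate 2, against 25.7% of all tested genes, with medians of -0.19 and 0.35 beside -0.01 and 0.04 over all genes. With the single transcript this held for 22 of 30, against 25.8%, with medians of -0.22 and 0.34. All 5 kinase and passenger genes, 7 of 8 kinetochore genes and 9 of 10 spindle genes followed it. Of the cyclin, CDK1 and ubiquitination genes 2 of 6 did so. Kif20b, a kinesin of the midbody, had -0.69 and 0.51, and Kif2c, a microtubule depolymerase, -0.60 and 0.41.

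In RNA-seq 6 genes were higher in both replicates, against 28.3% of all genes, and 1 was lower, against 25.3%. By at least 0.3 in each replicate, 2 genes were higher, against 6.17% of all genes. Ect2, the exchange factor that activates RhoA for furrowing, was one. Its levels were 35.8 and 33.6 in Scram and 55.7 and 44.6 in shMETTL3, with no overlap, and it was higher by 0.63 and 0.40 (fit 0.51, SE 0.26). In Ribo-seq it had 60.4 and 53.5 in Scram and 82.8 and 73.2 in shMETTL3, a difference of 0.45 and 0.44 (fit 0.45, SE 0.27). Ube2c, measured on the sum only, was higher in RNA-seq by 0.36 and 0.34 (SE 0.61). Prc1, which bundles antiparallel microtubules, was the one gene lower in both, at -0.17 and -0.28. Prc1 shares 911 exon bases with Rccd1 on the opposite strand, and Ube2c 592 with Tnnc2. Whether reads were counted by strand is not given. Ccnb1 stood at 0.26 and 0.58 (fit 0.42, SE 0.48).

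In Ribo-seq 15 of 34 were higher in both replicates, against 32.2%, and 3 were lower, against 25.3%. Past 0.3 in both there were 3 genes, against 11.9%: Ect2, given above, Bub1b and Birc5. Bub1b, a kinase-like checkpoint protein that inhibits CDC20, had 29.7 and 40.5 in Scram and 38.4 and 68.4 in shMETTL3. It was higher by 0.36 and 0.74 (fit 0.55, SE 0.43), while the Scram range reached into that of the knockdown. Birc5 had 480.5 and 230.3 in Scram and 693 and 369.5 in shMETTL3, higher within each replicate by 0.53 and 0.68 (SE 0.57). On the single transcript Hmmr, a spindle-pole protein, also passed 0.3, at 0.51 and 0.30 (SE 0.76). Its levels were 24.1 and 11.7 in Scram and 35.6 and 14.6 in shMETTL3, so that the groups overlapped.

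In TE, Ccnb1 and Cdk1 had lower values under METTL3 knockdown, and Bub1b and Birc5 higher ones. Ccnb1 TE was lower in both METTL3 knockdown replicates, at -0.76 and -0.54 (fit -0.65, SE 1.01), with RNA differences of 0.26 and 0.58 and footprint differences of -0.49 and 0.04. Cdk1 had -0.40 and -0.51 (SE 0.75). Bub1b had 0.69 and 0.33 (SE 0.56), and Birc5 0.94 and 0.36 (fit 0.65, SE 1.18). Over the set 7 of 34 were lower in both, against 24.9% of all genes, and 4 higher, against 30.3%. At least 0.3 in both replicates was reached by 2 genes downward, against 7.36%, and by 2 upward, against 9.72%. The signs differed within the set, and no member passed the test.

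ABCF1 knockdown also moved no gene past the test. limma called 0 of 30 members in each of RNA-seq, Ribo-seq and TE, and 0% of all tested genes, with a lowest adjusted p of 0.99999 in each. An unadjusted p under 0.05 was found for 79, 106 and 36 genes of the whole table and for 0 members, on the single transcript or the sum. These values are from the fit without a replicate block. With the block the lowest member adjusted p was 0.714, 0.623 and 0.9996. Unadjusted limma p values under 0.05 then included Ndc80 in Ribo-seq (0.042, single transcript) and Cdk1 in RNA-seq (0.0147, sum). METTL3 and ABCF1 knockdowns were set against the same Scram libraries, so their values are given side by side and not compared through them.

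Set against Scram of the same number, the members lay low in replicate 1 of the ABCF1 knockdown. In RNA-seq their medians were -0.40 and 0.13, beside -0.02 and -0.03 over all genes, with 19 of 34 lower then higher (22.9% of all genes), 10 lower in both (29.4%) and 3 higher in both (24.2%). With the single transcript 18 of 30 were lower then higher, against 23.4%, and 7 lower in both, against 29.2%. By role, the replicate 1 medians were -0.55 for spindle genes, -0.52 for cyclin, CDK1 and ubiquitination genes, -0.50 for kinase and passenger genes, -0.11 for kinetochore genes and 0.02 for cytokinesis genes. In Ribo-seq 22 of 34 were lower then higher, against 25.3%, with medians of -0.29 and 0.33 beside -0.00 and 0.03. For the single transcript these were 21 of 27 with values in both replicates, against 27.2%. Over the 26 genes counted on 1 transcript, the RNA-seq medians of replicate 1 minus replicate 2 were 0.30 in Scram and -0.10 in shABCF1. The larger RNA-seq shift was thus in Scram. In Ribo-seq these medians were -0.074 in Scram and -0.48 in shABCF1.

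**Figure D3:**
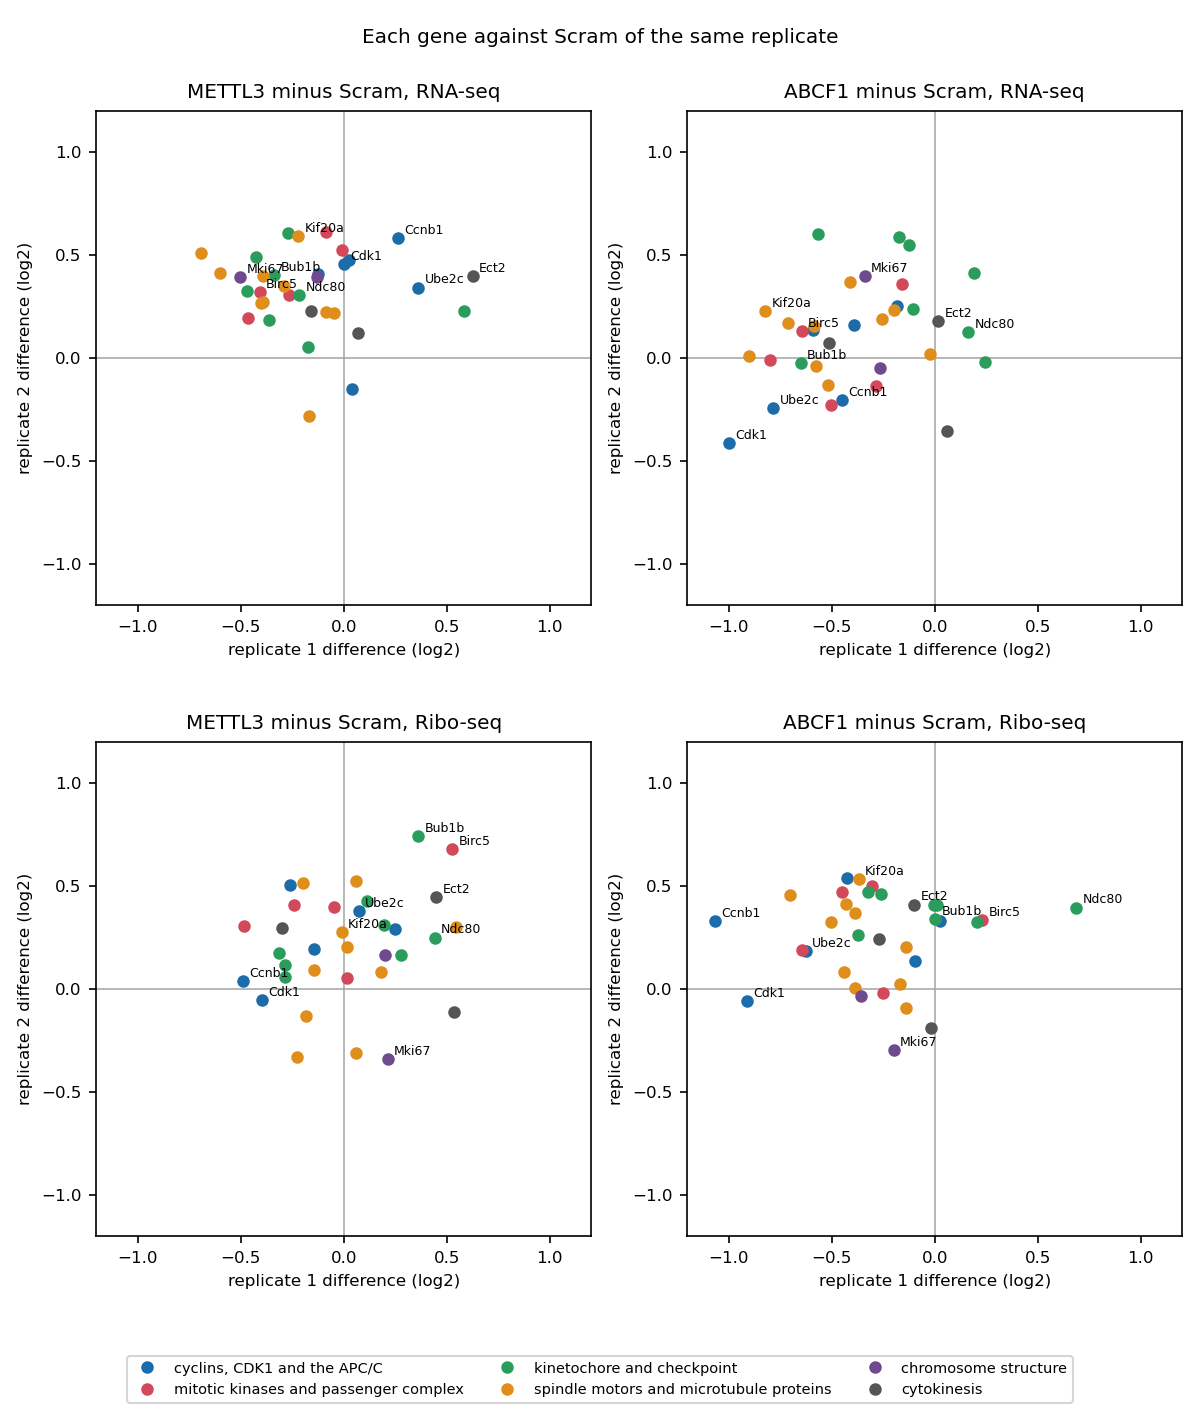
Difference from Scram (log2) of the 34 genes in replicate 1 (horizontal) and replicate 2 (vertical), by knockdown and assay, coloured by role. In METTL3 RNA-seq 26 of 34 points and in ABCF1 Ribo-seq 22 of 34 lie in the upper left, where a gene is lower in replicate 1 and higher in replicate 2.

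Cdk1 RNA was the one member lower by at least 0.3 in both replicates on the sum, against 7.26% of all genes, at -0.996 and -0.41 (fit -0.71, SE 0.56). Its levels were 23.1 against 47.1 in replicate 1 and 55.2 against 73.9 in replicate 2. Cdk1 footprints stood at -0.91 and -0.06. Ccnb1 had -0.45 and -0.20 in RNA-seq and -1.07 and 0.33 in Ribo-seq, the widest gap between replicates in the set. Ube2c had -0.78 and -0.25 in RNA-seq and -0.63 and 0.18 in Ribo-seq.

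Ndc80, the microtubule-binding subunit of the outer kinetochore, was the one gene higher by at least 0.3 in both Ribo-seq replicates, against 8.44% of all genes. Its levels were 8.95 and 24.6 in Scram and 15.0 and 32.6 in shABCF1, higher by 0.69 and 0.39 (fit 0.54, SE 0.66). The replicates lay further apart than the groups, and the ranges overlapped. Nuf2 and Spc25 of the same complex and the checkpoint kinase Ttk had 0.01 and 0.41, -0.01 and 0.41, and -0.37 and 0.26.

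TE in the ABCF1 knockdown was higher in both replicates for 16 of 34 genes, against 30.9% of all genes, and lower in both for 1, against 23.2%. The medians were 0.17 and 0.19, beside 0.03 and 0.05. With the single transcript 12 of 27 were higher in both and 2 lower, against 30.7% and 22.9%. By at least 0.3 in both, 3 genes were higher, against 9.33%. Bub1b had 0.67 and 0.36 (SE 0.56). Incenp, the scaffold of the passenger complex, had 0.38 and 0.48 (SE 0.53), and Kif20a, the kinesin that carries that complex to the midzone, had 0.48 and 0.30 (SE 0.47). In these genes RNA was lower in replicate 1, at -0.65, -0.80 and -0.82, than footprints were, at 0.00, -0.45 and -0.37. Kif20a shares 606 coding bases with Cdc23 on the other strand, and no source used here says whether reads were counted by strand. The single lower gene was Ttk, the checkpoint kinase, at -0.54 and -0.17.

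Set directly against each other, without Scram, the knockdowns differed in RNA-seq in the same direction in both replicates for more of the set. In shMETTL3 21 of 34 genes were higher than in shABCF1 in both, against 35% of all genes, and 4 were lower, against 26.8%. The medians were 0.21 and 0.21, beside 0.03 and 0.07. All 5 kinase and passenger genes, 5 of 6 cyclin, CDK1 and ubiquitination genes and 3 of 3 cytokinesis genes were higher, and 1 of 8 kinetochore genes. Cdk1 had 1.00 and 0.87 (fit 0.93, SE 0.56) and Ccnb1 0.71 and 0.79 (fit 0.75, SE 0.48). Without the block, limma called 0 members and 0% of all genes, with a lowest member adjusted p of 0.99994. An unadjusted p under 0.05 was found for 254 genes of the table, 0 of them members. With the block the lowest member adjusted p was 0.366. In Ribo-seq 13 were higher in both and 8 lower, against 34.7% and 28.1%, and 0 members were called (201 genes of the table at an unadjusted p under 0.05). In TE 12 were lower in both and 4 higher, against 27.9% and 24%, and 0 were called (43 genes).

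Relative to the library median, Torin1 went with more footprints on most of the set and fewer on a few members. Scaling to that median removes any change shared by all genes, so a change in total translation is not measured. Against Scram replicate 2, 28 of 34 genes had a higher Ribo-seq level in Torin, against 50.2% of all tested genes, with a median difference of 0.25 beside 0.00. For the single transcript it was 28 of 30, against 50.6%, with a median of 0.30. There is 1 library on each side, so these comparisons have no replicate check and describe those libraries. The 95% intervals below are exact binomial (Clopper-Pearson) limits on the share of reads, turned into ratios, and cover counting error only. By them 18 genes lay above 1, 4 below 1, and 12 held 1.

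All 8 kinetochore genes, all 10 spindle genes and all 3 cytokinesis genes had a higher level in Torin, with medians of 0.31, 0.39 and 0.29. Of the cyclin, CDK1 and ubiquitination genes 3 of 6 were higher, and of the kinase and passenger genes 3 of 5. The kinesin Kif4 stood furthest out, as described below. Ccnb1 had 1012 reads against 1100 in the deeper Scram library, a scaled ratio of 1.74 (1.59 to 1.90). Incenp and Ndc80 each had 1.76 (1.46 to 2.12, and 1.41 to 2.19), and Anln, a scaffold of the contractile ring, 1.70 (1.51 to 1.90). In the rest of these groups the ratio ran from 1.06 for Prc1 to 1.69 for Cenpe and Hmmr, with Kif20b at 1.61 (1.28 to 2.03) and Tpx2 at 1.34 (1.19 to 1.501). Hmmr, at 19.7 in Torin, lay below the 24.1 of Scram replicate 1, while Prc1, Cenpe and Kif20b were above both Scram libraries. The Anln levels were 52.9 in Scram replicate 2 and 89.6 in Torin, and those of Bub1b 40.5 and 59.2.

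The 4 genes below 1 were Ube2c at 0.469 (0.413 to 0.531), Ccna2, cyclin A2, at 0.555 (0.478 to 0.641), Birc5 at 0.637 (0.513 to 0.785) and Cdk1 at 0.860 (0.774 to 0.953). Ube2c had 631 in Scram replicate 2 and 296 in Torin, and it was the one gene lower by 1 or more on the log2 scale, at -1.09, against 4.14% of all genes. It was measured on the sum only. Aurka, the centrosomal Aurora kinase, had 0.864 with an interval that held 1 (0.732 to 1.02). The coding lengths of these 5 genes in the replicate 2 files ran from 423 to 1269 bases. All but Ccna2 are counted on other transcripts in replicate 1, and Ccna2 was lower in Torin than in each of the 6 other Ribo-seq libraries. Other short members were higher in Torin: Aurkb (1038 bases) had 1.18, and Spc25 (681) had 1.17 and Ccnb2 (1197) 1.03 with intervals that held 1. The longest member, Mki67 (9534), was also lower, at 0.961 with an interval that held 1.

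**Figure D4:**
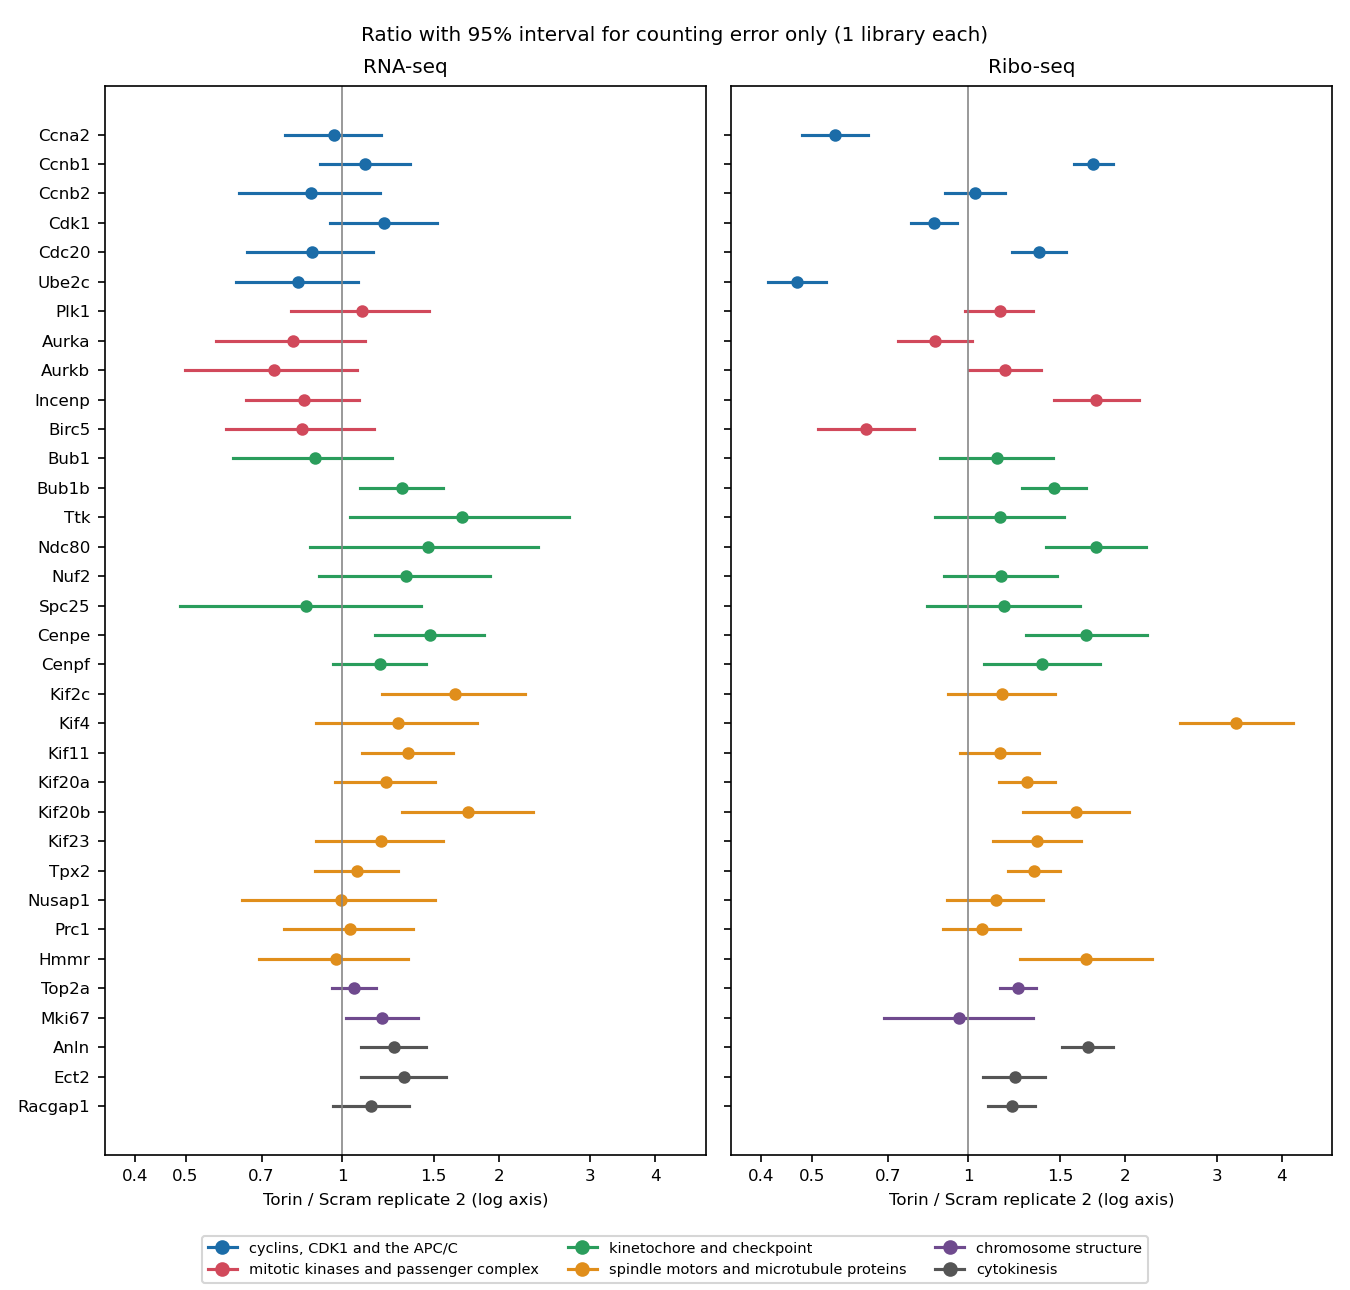
Ratio of the Torin level to that of Scram replicate 2 (log axis) for the 34 genes in RNA-seq and Ribo-seq, with 95% intervals for counting error only, coloured by role. In Ribo-seq 18 intervals lie above 1 and 4 below, with Kif4 at 3.27, and in RNA-seq 9 lie above 1 and the other 25 hold 1.

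Longer members tended to have a higher Torin minus Scram replicate 2 difference in RNA-seq, and in Ribo-seq rho depended on the 8 genes counted on differing transcripts. Over the 34 genes Spearman's rho between coding length and the difference from Scram replicate 2 was 0.51 in Ribo-seq, 0.58 in RNA-seq and 0.11 in TE. Over all genes it was 0.40 in Ribo-seq and 0.10 in RNA-seq. Without those 8 rho was lower over 26 genes, at 0.22 in Ribo-seq, 0.49 in RNA-seq and -0.12 in TE. These are descriptions of 2 libraries, whose values share depth and base composition, and the part of length in the result was not tested. Against Scram replicate 1 no rho was taken. The longest members had lower RNA-seq levels in Torin than there: Mki67 24.6 against 45.1, Cenpf 12.9 against 22.85, Cenpe 14.25 against 17.6, Kif20b 15.1 against 27.4 and Top2a 120 against 125. Kif4 and Anln, next in length, were higher in Torin than in both Scram libraries. With Scram replicate 1 added as a further reference in Ribo-seq, 21 of 34 genes were higher in Torin than in both Scram libraries, against 36.7%, and 13 were higher than in all 6 other libraries, against 20.5%. Without the 8 genes these were 18 of 26, against 37.4%, and 11 of 26, against 20.9%.

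Kif4, a kinesin that compacts chromosomes and builds the anaphase midzone (chromosome X, 100625737 to 100727214, plus strand), had footprint levels of 6.32 and 7.70 in Scram, 6.63 and 6.01 in shMETTL3, 5.52 and 7.83 in shABCF1, and 25.2 in Torin. Torin stood apart from 6 libraries that lay close together. The ratio to Scram replicate 2 was 3.27 (2.55 to 4.20) from 180 and 104 reads, and the difference on the log2 scale was 1.59, the one value of 1 or more upward, against 2.88% of all genes. Its RNA-seq levels were 8.66 and 8.11, 6.35 and 9.99, 7.42 and 9.70, and 10.4. The RNA-seq ratio to Scram replicate 2 was 1.28 (0.891 to 1.81), and the TE difference was 1.18. In the fit against both Scram libraries, in which the lone Torin library is assumed to vary like the other groups, the single-transcript difference was 1.49 (SE 0.42, limma adjusted p = 0.891), and with the replicate block it was 1.59 (SE 0.33, adjusted p = 0.102). Kif4 shares 832 exon bases, 100 of them coding, with Pdzd11 on the opposite strand, whose own deposited Ribo-seq RPKM was 46.6 in Scram replicate 2 and 38.9 in Torin. Reads over the shared bases cannot be told apart where strand was not used.

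In RNA-seq 22 of 34 genes were higher in Torin than in Scram replicate 2, against 51.7% of all genes, with a median of 0.16 beside 0.01. The intervals of 9 lay above 1 and none lay below. With both Scram libraries as the reference the counts lay near the shares of all genes: 12 of 34 were higher than both, against 32.6%, 9 were lower than both, against 30.8%, and 4 were higher than all 6 other libraries, against 14.9%. The fitted median against both was -0.06 on the single transcript, -0.03 with the replicate block, and 0.04 on the sum. Without the 8 genes 10 of 26 were higher than both, against 33%, and 6 lower, against 30.4%. Against Scram replicate 2, Kif20b had 1.75 (1.30 to 2.33), Ttk 1.70 (1.03 to 2.73), Kif2c 1.65 (1.195 to 2.25) and Cenpe, a kinetochore motor, 1.48 (1.16 to 1.88). Kif20b and Cenpe, at 15.1 and 14.25 in Torin, lay below Scram replicate 1, at 27.4 and 17.6. Ttk and Kif2c were above both Scram libraries. Of the cyclin, CDK1 and ubiquitination genes 4 of 6, and of the kinase and passenger genes 4 of 5, lay below Scram replicate 2. Of all genes 48.3% did so. The medians of these roles were -0.12 and -0.25, and the interval of each of their genes held 1. TE was higher for 23 of 34, against 46.9%, with a median of 0.11 beside -0.04. Kif4 at 1.18 and Incenp at 1.01 were the genes at 1 or more, against 2.64%. Incenp had RNA levels of 34.8 in Scram replicate 2 and 29.3 in Torin, and Ribo-seq levels of 24.8 and 43.6. limma against both Scram libraries called 0 members and 0% of all genes in each of the 3 readouts. On the single transcript an unadjusted p under 0.05 was found for 203, 304 and 274 genes of the table, and for 0, 1 and 1 members, in both cases Kif4. On the sum it was found for 0, 3 and 1 members: Kif4, Ube2c and Anln in Ribo-seq and Kif4 in TE. The Ube2c fit sets Torin also against replicate 1 levels from another transcript.

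The lists of other cell cycle genes, 191 genes in 7 lists, held no call in the fit without a block. Their counts are given on the sum, and the values of named genes on the single transcript. In METTL3 knockdown RNA-seq, 18 of 36 genes of DNA replication and the G1/S transition were higher in both replicates and 2 lower, and in ABCF1 knockdown 5 were higher and 20 lower. The shares of all genes to read these and the next counts against are 28.3% higher and 25.3% lower for METTL3, and 24.2% and 29.4% for ABCF1. Ccne1, cyclin E1, had -0.52 and -1.46 in ABCF1 knockdown RNA-seq, and -0.99 and -0.49 in Ribo-seq. Pcna, the DNA polymerase clamp, had -0.79 and -0.89 in METTL3 knockdown Ribo-seq. Of the CDK switch regulators 11 of 18 genes with values in both replicates were higher in both METTL3 RNA-seq replicates and 1 lower. Among them was Cks2, a small CDK-binding protein, at 0.49 and 0.80. Its TE was lower, at -0.67 and -0.99. Cdc25c, the phosphatase that activates CDK1, had a TE in the ABCF1 knockdown of 1.15 and 1.38.

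Of the DREAM, B-MYB, FOXM1 and NF-Y genes 8 of 20 were higher in both METTL3 RNA-seq replicates and 5 lower. E2f8, an E2F repressor, had 0.79 and 0.65. In the ABCF1 knockdown 6 of 21 were higher and 7 lower, and Rbl2, the p130 subunit of DREAM, had 0.79 and 1.34. Of the other kinetochore genes 12 of 35 were higher in both METTL3 RNA-seq replicates and 5 lower, and of the other spindle and cytokinesis genes 12 of 38 and 4, both counts of higher genes being near the share of all genes. Kif18b, a kinesin at microtubule plus ends, had 0.45 and 0.79. Condensin and cohesin genes were split, 5 of 18 higher and 4 lower, as were the anaphase-promoting complex and separase genes, 8 of 19 and 3. For Torin in Ribo-seq, 16 of 18 condensin and cohesin genes and 28 of 39 other spindle and cytokinesis genes were higher than Scram replicate 2, where 50.2% of all genes were. The counts were 18 of 36 for other kinetochore genes, 10 of 19 for CDK switch regulators and 7 of 18 for anaphase-promoting complex and separase genes. Numa1, which tethers microtubules at spindle poles, had 1.17, and Ccne1 -1.47.

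With the replicate block, 23 genes of the summed table were called in Torin RNA-seq (0.229%), 157 in Ribo-seq (1.49%) and 104 in TE (0.994%). None was a member. The listed genes among them were Gins1 in RNA-seq and TE (limma adjusted p = 0.0246 and 0.0102), Anapc15 in Ribo-seq (0.0111) and Ccne2 in Ribo-seq (0.0397). Gins1 was not listed in Torin RNA-seq, nor Anapc15 in Torin Ribo-seq, so neither has a measured fold. Gins1 had 5.28 to 22.2 deposited RPKM in the other 6 libraries, and Anapc15 5.86 to 26.2. Ccne2, cyclin E2, had 23.3 in Scram replicate 2 and 7.46 in Torin. The epithelial marker Krt18 was also called in Ribo-seq (0.0309), with 200.2 in Scram replicate 2 and 76.2 in Torin.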

How the data were processed

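Ribo-seq and RNA-seq libraries of mouse embryonic fibroblasts were used as deposited: the authors gave 1 RPKM value per transcript and library, and no counts. The submitters' processing notes name cutadapt, Bowtie and build GRCm38. No source used here gives versions, strand use or the annotation. Of 22453 transcript identifiers 22356 matched GENCODE M21 and gave 14248 genes. The steps between low RPKM values implied the depths, with 98.6 to 98.8% of Ribo-seq and 81.2 to 86.3% of RNA-seq values whole within 0.02 reads. They served for counting intervals (Python 3.11.15, scipy 1.17.1), and since values were not whole for nearly all genes in RNA-seq, no count test was run.

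Values were scaled to a common library median, log2(RPKM + 1) was taken, and limma 3.58.1 (R 4.3.3, trended empirical Bayes, Benjamini-Hochberg over all tested genes) was fitted to all libraries of an assay, or of both for TE. Fold changes on this scale understate those of low genes. A gene entered the test if a 0.5 share of libraries or more listed it and its mean RPKM reached 1. For the single transcript that was 9021 (RNA-seq), 9534 (Ribo-seq) and 9428 (TE), and for the sum 10031, 10522 and 10460. A call is an adjusted p under 0.05. The procedure was also run on simulated data with independent noise and no shift between replicate numbers. That run does not show its power on these libraries. Same-numbered libraries deviated from their group means together over the 3 groups (RNA-seq r 0.82 to 0.88, Ribo-seq r 0.91 to 0.94), so the numbers pair libraries, and a fit with the replicate block was made. Torin was set at replicate 2, whose files share its transcript choice.

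Named members follow the rule given in the report, and from each list of other genes at most 2 were printed, beside any past a test. The members and lists were chosen with earlier results of these data known. Alternatives were the pseudocount (0.1 and 5), the filter, the scaling, summed transcripts, the block, the Torin reference and leaving out each replicate. Leaving out the 8 genes counted on differing transcripts was added after seeing the data.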

Additional observations from a re-analysis of the deposited data

How the results depend on the processing

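Members called stayed at 0 under each alternative, and the block changed no other call of a member. With the replicate block, limma called 1 gene of the whole table in METTL3 knockdown Ribo-seq and 5 in METTL3 against ABCF1 Ribo-seq (0 without it). On the single transcript, the members' METTL3 against ABCF1 RNA-seq median was 0.16. It was 0.14 with pseudocount 5 and with the strict filter (mean RPKM of at least 5, listed in every library), 0.23 with no filter, 0.24 with no scaling, 0.13 with quantile normalization and 0.20 on summed transcripts. The ABCF1 TE median of 0.15 became 0.084, 0.0595, 0.095, 0.28, 0.14 and 0.12 in the same order. The Torin TE median of 0.16 became -0.051 with no filter, 0.54 with no scaling, 0.28 with quantile normalization and 0.42 against both Scram replicates. Baseline TE medians of -1.12 and -0.53 became 0.13 and 0.76 with quantile normalization. That was done within each assay and without the common median, so an offset between the assays enters these values. They cannot be read against the all-gene medians given above, and do not say where the members lay relative to all genes.

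Counts of members past 1 under Torin were small throughout. Against both Scram replicates 4 members were higher in RNA-seq (0 otherwise), 3 higher (1 otherwise) and 1 lower (0 otherwise) in Ribo-seq, and 1 lower in TE. The counts against both are on the single transcript. For Aurkb, Nuf2, Tpx2 and Nusap1 it is not the leading one in the replicate 1 files, so their Scram replicate 1 values are not comparable with Torin. Ribo-seq had 2 higher with no scaling or quantile normalization and 1 lower on summed transcripts. TE had 2 higher, which became 0 with pseudocount 5 or no filter, 6 with no scaling and 1 with limma and the block, and 1 lower with no filter.

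Values near 0 changed sign. Mki67 in ABCF1 RNA-seq (0.03) became -0.0098 with no filter and -0.098 with no scaling. Mki67 in METTL3 TE (-0.00) became 0.043 with pseudocount 5, 0.0087 with no scaling and 0.0022 on summed transcripts, and Top2a there (0.03) became -0.029 with no filter. In ABCF1 TE with no scaling Ccnb1 became 0.13 and Top2a 0.14 (-0.03 each before). With no scaling, offsets between libraries enter the values of all genes. The cause of each sign change was not tested.

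Leaving out each replicate in turn gave, in METTL3 RNA-seq, -0.043 to 0.75 for Ccnb1, -0.62 to 0.65 for Mki67 and -0.041 to 0.36 for Top2a. In METTL3 Ribo-seq it gave -0.81 to 0.13, -0.44 to 0.15 and -0.065 to 0.38, and -0.41 to 1.12 for Hmmr. In METTL3 TE it gave -0.63 to 0.60 for Mki67 and -0.25 to 0.35 for Top2a. In ABCF1 RNA-seq the ranges were -0.55 to 0.73 for Mki67 and -0.26 to 0.072 for Top2a, and in Ribo-seq -1.36 to 0.43 for Ccnb1 and -0.60 to 0.024 for Top2a. In ABCF1 TE they were -0.57 to 0.48 for Ccnb1, -0.86 to 0.37 for Mki67, -0.41 to 0.31 for Top2a and -0.066 to 0.33 for the members' median. The METTL3 against ABCF1 medians ran from 0.12 to 0.23 in RNA-seq, -0.0195 to 0.41 in Ribo-seq and -0.20 to 0.10 in TE. A group left with 1 library is assumed there to vary like the others.

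The members' fewest reads were 19 in a library, each knockdown has 2 replicates per assay, and the 1 Torin library per assay has none.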
